A study of Mus musculus and Rattus norvegicus with 14 samples.

Results

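Hearts of mice labelled SQ-3 were compared with hearts labelled Sham over all measured genes, to see which transcripts still differed from Sham under SQ-3. The comparison holds 6 of the 14 libraries of the series, 3 per group, taken by their column names in the mouse table. SQ-3 is the code name of a compound that the study tested against fibrosis of the heart. Another group, labelled Model, is set beside these groups, since SQ-3 levels are easier to read between Sham and Model. The labels give no strain, age, dose, treatment time, model procedure or hour of collection. Whether the procedure of the Model group was also carried out on SQ-3 hearts is not stated, nor whether each library is a different animal. The p-values therefore measure only the spread between these libraries, which may be technical. LQ-40 hearts entered the shared estimate of spread and are not described, and the rat cell libraries were not used.

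Fibrosis is a build-up of extracellular matrix, which fibroblasts make when they turn into activated, matrix-secreting cells. TGF-beta and Wnt ligands, released and trapped in the matrix, are known to drive that step, and collagens, fibronectin and elastic fibre proteins are its main products. Interferons are signals of infection and tissue damage; they switch on a large group of antiviral and antigen-presenting genes. In injured hearts the genes of mitochondrial energy supply commonly decline while natriuretic peptides and fetal isoforms are induced.

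Messenger RNA was measured as FPKM (reads scaled to gene length and to a factor for each library), rescaled here between libraries and called scaled FPKM. The deposited values had been divided by 0.828 to 0.942 times the reads in genes in Sham and 0.963 to 1.06 times in SQ-3, a scaling that no label states. The rescaling removes any factor common to all genes of a library. Values of single libraries follow the order of replicates 1, 2 and 3. Fold changes are differences of log2(scaled FPKM + 1), given with their standard error (SE), and understate the change of low genes. The 6 libraries held 13085370 to 16698987 reads in genes. Cardiac transcripts dominated every library: Actc1, the main cardiac actin, measured 6961 to 8382 scaled FPKM in Sham and 5197 to 6349.6 in SQ-3, while of 15 markers of thymus, lung and liver only 1, Hopx, which heart muscle also expresses, passed the filter on low values. Reads from the mitochondrial genome made up 19.9 ± 4.7% in Sham and 17.0 ± 2.7% in SQ-3 (SD, n = 3), a difference within the spread of the libraries (two-sided exact permutation p = 0.4, where 0.1 is the smallest possible). On the first principal component of all 12 mouse libraries, which held 53.4% of the variance, the Sham libraries lay at -52.5 to -43.7, the Model libraries at 26.3 to 36.2, and SQ-3 replicates 1, 2 and 3 at 0.68, 17.7 and 0.23. SQ-3 replicate 2 thus stood apart from its group, nearer to Model, and values without it are given for some of the lists and genes. The LQ-40 libraries, which entered the estimate of spread, were scattered on this component, at -20.6, 16.0 and 34.3.

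Of 13000 genes tested, 632 were higher and 236 lower in SQ-3 than in Sham (limma, Benjamini-Hochberg adjusted p under 0.05), which is 6.68% in all, 4.86% higher and 1.82% lower. Among them 268 were higher and 134 lower by at least 2-fold. The median log2 fold change over all tested genes was 0.0054. The same test called 5053 genes between Model and Sham (38.9%), with 20.9% of all genes higher and 18% lower in Model. It called 45 between SQ-3 and Model (0.346%), 10 of them higher in SQ-3 (0.0769%). Both contrasts with Sham use the same Sham libraries, so their values are given side by side and were not treated as independent. The number of calls rested on each library: it was 261, 227 and 444 without Sham replicates 1, 2 and 3, and 321, 247 and 252 without SQ-3 replicates 1, 2 and 3. Genes lower in SQ-3 varied less over these omissions (108 to 152) than genes higher (109 to 292). With only the SQ-3 and Sham libraries in the fit, 1292 genes were called, 906 higher and 386 lower. In the plot of all genes the labelled interferon-induced genes lay among the largest negative values and the labelled matrix genes among the largest positive ones. The lowest point, Rps2 at -6.16, is a ribosomal protein gene that was not called.

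**Figure D1:**
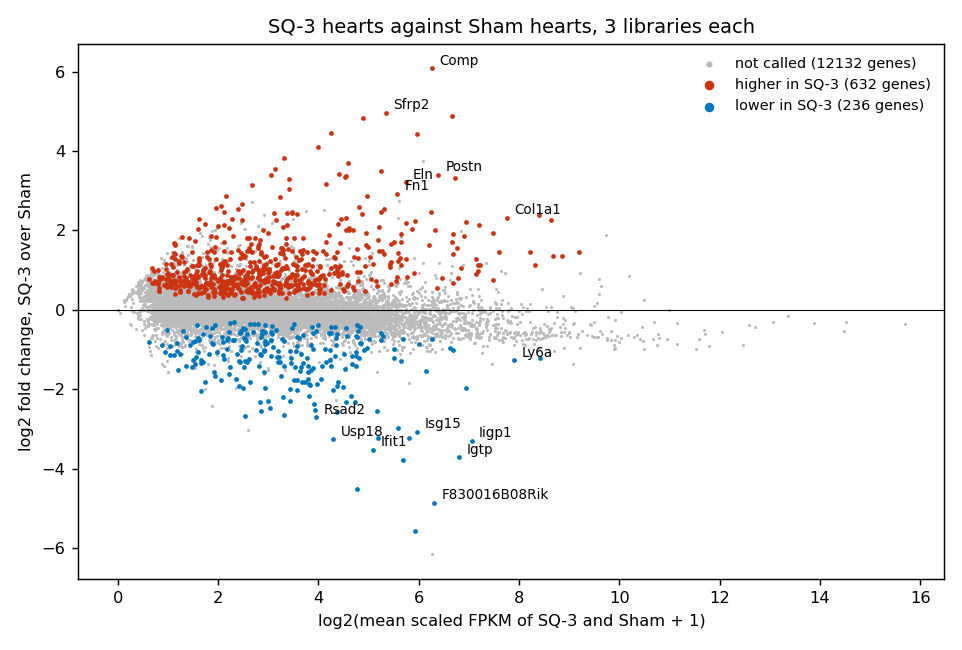
Log2 fold change of SQ-3 over Sham (y axis) against the mean level of each gene (x axis, log2 of scaled FPKM + 1) for 13000 tested genes, with 632 called higher in red and 236 called lower in blue. The labelled genes below 0 are interferon-induced and those above 0 encode matrix and fibroblast proteins, and the lowest point, Rps2, was not called.

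Interferon-induced genes were lower in SQ-3 than in Sham. Of 46 tested interferon-stimulated genes 41 were lower in SQ-3, with a median log2 fold change of -1.82, against 1.82% of all genes called lower. Of 18 tested interferon-induced GTPases, proteins that attack the vacuoles of intracellular microbes, 16 were lower, with a median of -2.02. In Model against Sham the same lists had 45 and 17 members called lower, against 18% of all genes, with medians of -2.01 and -2.70. No member of either list passed the test between SQ-3 and Model (limma; 4 and 9 were higher in SQ-3 at an unadjusted p under 0.05, and limma-voom called none). Such a p between SQ-3 and Model was found for 1847 of all 13000 genes, in either direction. In single libraries the median of the interferon-stimulated genes lay between -2.05 and -1.56 in SQ-3 and between -0.28 and 0.24 in Sham, on the log2 scale relative to the Sham mean.

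Promoters of 4 of these genes are shown because they carry the interferon-stimulated response element, a DNA word read by factors that act downstream of interferon. The windows come from RefSeq (build GRCm38.p6, the assembly also called mm10) and run from 250 bases before to 50 bases after the start site, written 5′ to 3′ on the strand of the gene. Capitals mark every match, on either strand, to GAAA, any 2 bases and GAAA.
Ifit1 (chr19:34640639-34640938, plus strand): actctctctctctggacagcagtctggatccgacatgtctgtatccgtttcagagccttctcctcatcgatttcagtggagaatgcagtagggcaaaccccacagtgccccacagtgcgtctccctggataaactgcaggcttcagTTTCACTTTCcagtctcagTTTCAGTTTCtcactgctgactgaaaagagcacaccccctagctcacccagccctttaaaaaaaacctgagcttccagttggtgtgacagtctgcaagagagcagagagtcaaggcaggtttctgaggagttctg
Isg15 (chr4:156200769-156201068, minus strand): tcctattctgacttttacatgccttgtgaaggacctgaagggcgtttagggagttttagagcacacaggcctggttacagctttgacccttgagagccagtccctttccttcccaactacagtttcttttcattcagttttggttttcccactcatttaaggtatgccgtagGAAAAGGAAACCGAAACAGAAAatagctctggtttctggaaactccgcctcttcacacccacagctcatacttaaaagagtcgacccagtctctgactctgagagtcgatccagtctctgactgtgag
Rsad2 (chr12:26456403-26456702, minus strand): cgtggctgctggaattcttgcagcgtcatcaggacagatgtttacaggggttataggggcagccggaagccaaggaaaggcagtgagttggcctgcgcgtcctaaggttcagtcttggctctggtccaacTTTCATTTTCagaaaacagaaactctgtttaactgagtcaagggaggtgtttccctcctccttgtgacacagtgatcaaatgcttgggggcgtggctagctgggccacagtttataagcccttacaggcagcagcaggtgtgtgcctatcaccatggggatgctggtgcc
Igtp (chr11:58199306-58199605, plus strand): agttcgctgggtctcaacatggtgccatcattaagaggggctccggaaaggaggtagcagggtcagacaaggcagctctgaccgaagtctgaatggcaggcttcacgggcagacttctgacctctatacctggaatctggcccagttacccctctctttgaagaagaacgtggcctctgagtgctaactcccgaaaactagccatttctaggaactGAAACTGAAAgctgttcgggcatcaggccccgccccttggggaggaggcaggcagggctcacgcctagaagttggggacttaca
In Ifit1 the 2 matches began 104 and 85 bases before the start site. In Isg15 3 overlapping matches began 78, 72 and 66 bases before it, and Rsad2 and Igtp held 1 match each, 120 and 34 bases before it. Of the interferon-stimulated genes with a window, 16 of 33 held the motif (48.5%), as did 9 of 10 GTPases (90.0%) and 5 of 17 genes of the MHC class I list (29.4%). The motif occurred in 3.80% of 9318 tested genes with a window, and in 3.99% of all 27025 genes in the promoter table. A match is a string of letters and not a measured binding site.

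Ifit1 (chromosome 19, 34640871 to 34650009, plus strand, mm10), which binds viral RNA and blocks its translation, measured 46.0, 70.8 and 68.3 scaled FPKM in Sham replicates 1, 2 and 3 and 5.003, 4.84 and 3.41 in SQ-3. Every SQ-3 library lay below every Sham library by a wide margin. The log2 fold change was -3.52 ± 0.31 (SE, adjusted p = 0.000237), or 11.5-fold lower, and Model libraries measured 4.31, 4.28 and 1.43. Isg15, a ubiquitin-like protein attached to other proteins in the antiviral state, measured 110.0, 93.8 and 128 in Sham and 12.8, 17.7 and 8.03 in SQ-3, a log2 fold change of -3.06 ± 0.33 (SE, adjusted p = 0.000649). Rsad2, the radical enzyme viperin, measured 20.1, 29.3 and 28.6 in Sham and 3.05, 3.59 and 2.64 in SQ-3, with -2.71 ± 0.22 (SE, adjusted p = 0.000189). In both genes every SQ-3 library lay well under every Sham library. Regulators of the response were lower too. Usp18, which removes ISG15 and damps receptor signalling, had a log2 fold change of -3.26 (adjusted p = 0.000189). Irf7, the factor that amplifies type I interferon production, fell from 65.2 ± 23.9 to 5.94 ± 1.46 scaled FPKM (SD, n = 3), and overlaps Phrf1, so its reads are less certain. Ifi44 and Parp14 had log2 fold changes of -2.64 and -1.86 (adjusted p = 0.000237 and 0.000189). Ifit3 had -3.22 (adjusted p = 0.0105), and its reads are hard to separate from those of its near copy Ifit3b.

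The 5 members that did not pass were Ifi27, Ifi27l2a, Irf1 and the chemokines Cxcl9 and Cxcl10. Ifi27l2a measured 298, 142 and 326 scaled FPKM in Sham and 96.1, 125 and 67.4 in SQ-3, so Sham replicate 2 lay close to the SQ-3 range (adjusted p = 0.0936). Ifi27 measured 117, 35.8 and 140.0 in Sham and 48.5, 46.5 and 36.7 in SQ-3, where the groups overlapped (adjusted p = 0.172, and 0.0105 without Sham replicate 2). Irf1, an early interferon target, had a log2 fold change of -0.77 with a 95% interval of -1.27 to -0.26 and an adjusted p of 0.0706.

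Among the GTPases, Igtp measured 242, 125 and 256 scaled FPKM in Sham and 15.3, 12.7 and 14.6 in SQ-3. All SQ-3 values lay at a small part of the lowest Sham value, that of replicate 2. Its log2 fold change was -3.71 ± 0.34 (SE, adjusted p = 0.000243), and its gene overlaps that of Irgm2, which had -2.98 (adjusted p = 0.000237). Iigp1 measured 325, 173 and 228 in Sham and 20.1, 21.1 and 28.2 in SQ-3, with -3.30 ± 0.33 (SE, adjusted p = 0.000352). Irgm1 and Gbp3, which overlap no other tested gene, had log2 fold changes of -2.32 and -2.32 (adjusted p = 0.000237 and 0.000331). The gene F830016B08Rik, a relative of the Iigp1 group, had the largest fall of the list, from 222, 95.5 and 139 in Sham to 5.86, 2.23 and 4.57 in SQ-3 (log2 fold change -4.86, adjusted p = 0.000320). Gbp2 measured 34.4, 47.1 and 65.9 in Sham and 21.8, 18.9 and 27.8 in SQ-3 and did not pass (adjusted p = 0.0572; 0.0474 with a mean of at least 5 FPKM and 0.0449 when SQ-3 and Sham were fitted alone). These families hold near-identical copies, and no source used here says how reads with several matches were counted.

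Genes that load peptides onto MHC class I, the display that lets T cells inspect a cell, were lower in part. Of 21 tested members 13 were lower in SQ-3, against 1.82% of all genes, with a median log2 fold change of -0.89. When any 1 library was left out 7 or 8 were lower. Nlrc5, the master activator of class I genes, measured 6.52, 5.60 and 8.51 scaled FPKM in Sham and 1.26, 0.974 and 1.77 in SQ-3. Its groups stood far apart, with a log2 fold change of -1.75 ± 0.24 (SE, adjusted p = 0.00334). The peptide transporter subunits Tap1 and Tap2 had log2 fold changes of -1.53 and -0.89 (adjusted p = 0.00670 and 0.00584), where Tap1 overlaps Psmb9. H2-Q6, a class I heavy chain, had -1.93 (adjusted p = 0.00774), and Psmb10, a catalytic subunit of the immunoproteasome, -0.67 (adjusted p = 0.00802). The light chain B2m measured 1809, 942 and 1105 in Sham and 568, 705 and 652 in SQ-3; all SQ-3 values were lower, and the call was missed at an adjusted p of 0.0971. H2-D1 overlapped between groups at 392, 202 and 432 in Sham and 257, 243 and 151 in SQ-3.

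Some named genes of other lists are also known to be induced by interferon, and how many such genes were tested was not counted. Ly6a, a surface protein of resident fibroblasts and vessel cells, measured 344, 318 and 354 scaled FPKM in Sham and 128, 149 and 142 in SQ-3. Its libraries were tight in both groups, and the log2 fold change was -1.27 ± 0.18 (SE, adjusted p = 0.00348). Tnfsf10, the death ligand TRAIL, had -1.03 (adjusted p = 0.0108). AW112010, a noncoding RNA of immune cells, had -0.97 (adjusted p = 0.0457). Adjusted p over the threshold was found for AW112010 (all omissions but Sham 2, up to 0.151) and with quantile normalization (AW112010 0.0642), no filter on low values (AW112010 0.112) and a fit of the 2 groups alone (AW112010 0.0615). No marker of lymphocytes (12 tested) or neutrophils (6 tested) was called (limma and limma-voom; 5 and none were higher at an unadjusted p under 0.05). Such a p was found for 3642 of all 13000 genes, in either direction. Lymphocyte markers summed to 14.6 to 34.1 scaled FPKM in Sham and 34.99 to 437 in SQ-3. Igkc, an antibody chain described below, enters these sums and had the largest rise of that list (log2 fold change 3.74, list median 0.70). Neutrophil markers summed to 9.62 to 23.7 in Sham and 8.47 to 20.02 in SQ-3. Of the macrophage genes 9 of 39 were higher in SQ-3, against 4.86% of all genes. In whole tissue, fewer cells of a type and less RNA per cell cannot be told apart.

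**Figure D2:**
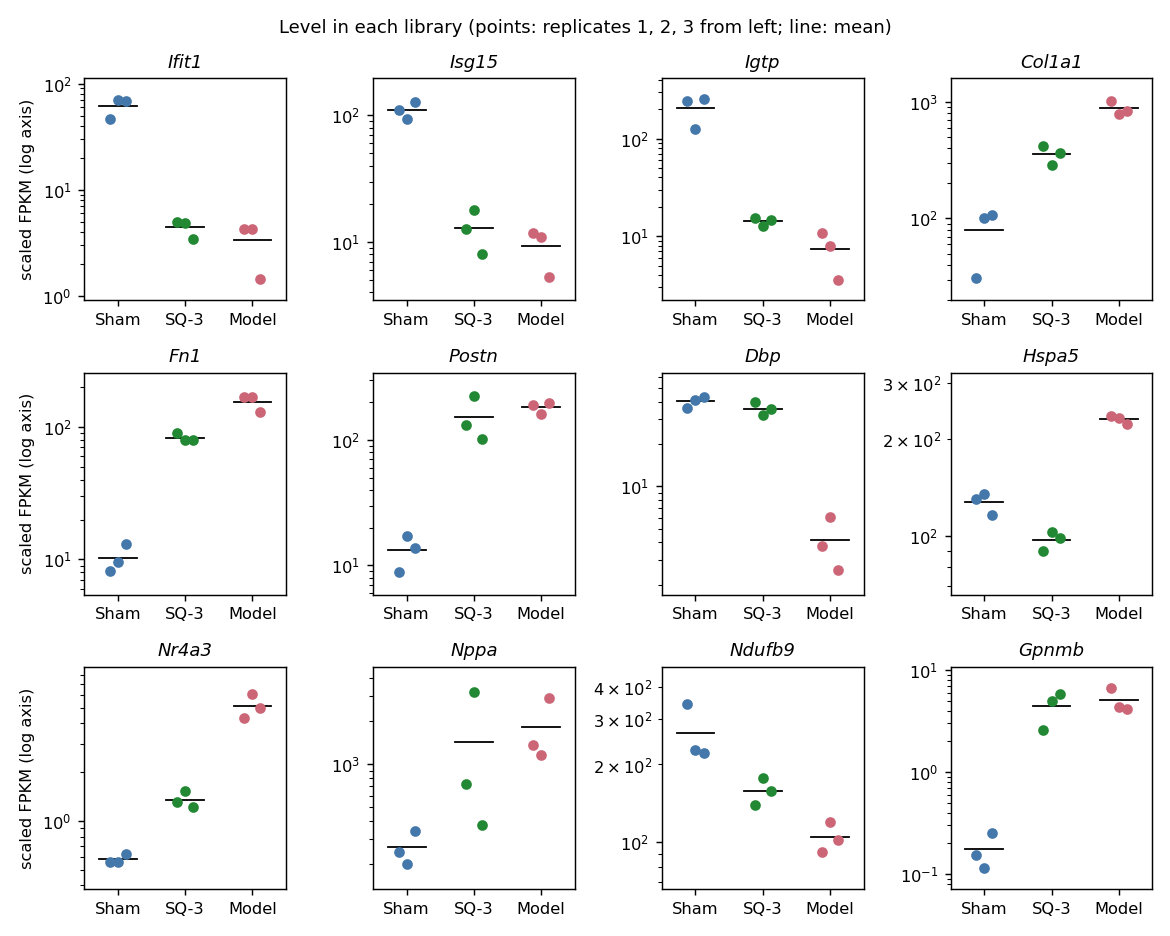
Level of 12 genes in each library (y axis, scaled FPKM on a log axis), with 3 points per group for Sham, SQ-3 and Model and a line at the mean. Ifit1, Isg15 and Igtp were low in both SQ-3 and Model, and Fn1 and Col1a1 lay between Sham and Model in SQ-3. In SQ-3 Dbp overlapped Sham, and Hspa5 lay below every Sham library and further below Model.

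Matrix genes were higher in SQ-3 than in Sham. Of 43 collagen chain genes 29 passed the filter on low values, and 17 of these were higher in SQ-3, with a median log2 fold change of 1.14, against 4.86% of all genes called higher. Of 57 tested matrix glycoproteins and proteoglycans 35 were higher (median 1.46), and of 45 enzymes and inhibitors that process matrix 16 were higher (median 0.88). Model against Sham called 26, 47 and 35 of the same members higher, against 20.9% of all genes, with medians of 2.04, 1.85 and 1.39. Summed over the collagens, Sham libraries held 440.1 to 939.8 scaled FPKM, SQ-3 libraries 1997 to 2302 and Model libraries 3720 to 4487, so the groups did not overlap. Each omission of a library left fewer of them called, at 2 to 9 collagens, 12 to 22 glycoproteins and 5 to 12 enzymes, while the medians were 0.74 (without Sham replicate 1) to 1.41, 1.18 to 1.58, and 0.80 to 0.93. Without SQ-3 replicate 2 the counts were 3, 12 and 5.

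Col1a1 (chromosome 11, 94936224 to 94953042, plus strand, mm10), the more abundant chain of type I collagen fibrils, measured 30.8, 100.3 and 107 scaled FPKM in Sham, 416, 287 and 362 in SQ-3 and 1020.1, 785 and 826 in Model. Sham replicate 1 was the lowest, and the 3 groups did not overlap. The log2 fold change of SQ-3 over Sham was 2.32 ± 0.57 (SE, adjusted p = 0.0375), and the difference from Model, -1.31, did not pass (95% interval -2.56 to -0.06, adjusted p = 0.334). Col3a1, the chain of the thinner type III fibrils, measured 60.1, 133 and 151 in Sham and 604, 563 and 519.9 in SQ-3, with 2.39 ± 0.47 (SE, adjusted p = 0.0182). Its Model values, 1147, 1136 and 1074, again lay above SQ-3 without passing (adjusted p = 0.364). Col14a1 and Col16a1, which bind to the surface of fibrils, rose by 2.41 and 2.41 (adjusted p = 0.0101 and 0.0106). The basement membrane chain Col4a1 measured 98.7, 198 and 204 in Sham and 203, 236 and 209 in SQ-3, where Sham replicate 1 alone was low, and did not pass (adjusted p = 0.270). The brackets that follow give the libraries whose omission ended a call and the adjusted p then reached. Calls were lost for Col1a1 (each of the 6 omissions, 0.0554 to 0.123) and Col3a1 (all omissions but Sham 3, up to 0.0674). They were also lost with quantile normalization (Col1a1 0.0590) and no filter on low values (Col1a1 0.103, Col3a1 0.0616).

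Fibronectin, Fn1, on which other matrix proteins assemble, measured 8.20, 9.62 and 13.0 scaled FPKM in Sham and 89.6, 79.3 and 80.2 in SQ-3. The SQ-3 values were close to one another and 7.56-fold above Sham on the fitted scale, a log2 fold change of 2.92 ± 0.40 (SE, adjusted p = 0.00330). Eln, the elastin precursor, measured 7.73, 7.41 and 11.7 in Sham and 63.1, 147 and 77.9 in SQ-3, with replicate 2 the highest, and rose by 3.22 ± 0.30 (SE, adjusted p = 0.000294). Its microfibril partner Mfap2 rose by 2.01 ± 0.27 (SE, adjusted p = 0.00280). Periostin, Postn, a matrix protein that activated fibroblasts secrete, measured 8.92, 17.0 and 13.7 in Sham and 133, 225 and 102 in SQ-3, with 3.40 ± 0.58 (SE, adjusted p = 0.00975). Comp, which links collagen fibrils and is abundant in tendon and cartilage, showed the largest rise among the named genes, from 0.814, 1.10 and 0.925 to 78.0, 267 and 107 scaled FPKM, with 6.08 ± 0.96 (SE, adjusted p = 0.00639). SQ-3 replicate 2 again held the highest value of the group for Postn and Comp. Without that replicate Postn rose by 3.09 (limma, adjusted p = 0.0455) and Comp by 5.57 (adjusted p = 0.0321). Wisp2, a secreted member of the CCN family, rose by 4.42, and Fbln1, a fibulin of elastic fibres and basement membranes, by 2.46 (adjusted p = 0.00334 and 0.00339). Ctgf, a CCN protein induced by TGF-beta and stretch, measured 41.2, 40.9 and 31.2 in Sham and 99.5, 377 and 89.7 in SQ-3. All SQ-3 values were above Sham, replicate 2 lay far above the others, and the gene did not pass, with a log2 fold change of 1.97 (adjusted p = 0.105) and, without that replicate, of 1.31 (adjusted p = 0.283). Tenascin C, Tnc, measured 0.241, 0.841 and 0.514 in Sham and 5.87, 6.13 and 4.15 in SQ-3 and missed the threshold at an adjusted p of 0.0507, which was 0.0232 with a pseudocount of 0.1, 0.0419 with a mean of at least 5 FPKM and 0.00182 when SQ-3 and Sham were fitted alone.

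Enzymes on both sides of matrix turnover were higher. Loxl1, which cross-links elastin, measured 14.8, 17.5 and 22.6 scaled FPKM in Sham and 85.6, 98.9 and 76.2 in SQ-3, with 2.20 ± 0.32 (SE, adjusted p = 0.00436). The gelatinase Mmp2 measured 34.9, 40.5 and 52.1 in Sham and 161, 179 and 145 in SQ-3, with 1.92 ± 0.31 (SE, adjusted p = 0.00737), and its membrane-bound activator Mmp14 rose by 1.82 (adjusted p = 0.00564). Timp2, an inhibitor that also takes part in that activation, was nearly constant within Sham at 53.9, 53.1 and 55.6 and measured 147, 188 and 153 in SQ-3, a rise of 1.56 ± 0.18 (SE, adjusted p = 0.00124). Htra3, a secreted serine protease, rose by 0.94 (adjusted p = 0.00639). The collagen chaperone Serpinh1 measured 82.9, 112 and 123 in Sham and 145, 194 and 118 in SQ-3, where SQ-3 replicate 3 fell inside the Sham range, and did not pass (adjusted p = 0.224).

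Fibroblast genes accompanied the matrix. Of 24 tested genes of activated fibroblasts 17 were higher in SQ-3 (median log2 fold change 2.16), against 4.86% of all genes. Of 26 genes of resident fibroblasts 15 were higher (median 0.95) and 1, Ly6a, lower, against 1.82% of all genes called lower. Over the 6 omissions 5 to 13 activated and 6 to 9 resident genes were called higher, and without SQ-3 replicate 2 they were 5 and 6. Several genes of both fibroblast lists are also in the matrix lists, and the resident gene C3 is also in the complement list, so these counts are not independent. Mdk, the growth factor midkine, measured 0.471, 1.12 and 1.13 scaled FPKM in Sham and 6.39, 11.4 and 6.90 in SQ-3, with 2.26 ± 0.39 (SE, adjusted p = 0.0106). Cthrc1, a secreted marker of matrix-producing fibroblasts, measured 0.140 to 0.246 in Sham and 10.6 to 28.4 in SQ-3, with 3.83 ± 0.73 (SE, adjusted p = 0.0161). Neither gene's groups overlapped. Among resident genes, Igfbp6 and Gas1 rose by 1.71 and 1.76 (adjusted p = 0.00255 and 0.00367). Acta2, the smooth muscle actin of vessel walls and myofibroblasts, did not pass (adjusted p = 0.706). It measured 124, 115 and 131 in Sham and 93.1, 149 and 109 in SQ-3, a log2 fold change of -0.10 with a 95% interval of -0.46 to 0.25, whose sign turned with quantile normalization and without SQ-3 replicate 1. Lrrc15, another activated fibroblast marker, was lower in level at 11.3, 9.51 and 6.94 in Sham and 5.87, 2.09 and 5.09 in SQ-3 and did not pass (adjusted p = 0.0928). The call was lost for Cthrc1 (without Sham 1 or Sham 2 or SQ-3 2, up to 0.0660) and with no filter on low values (Cthrc1 0.0540) and limma-voom on recovered reads (Cthrc1 0.140).

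Marker lists of other cell types moved with the fibroblast genes in part. Of 13 tested mesothelial and epicardial markers 3 were higher (median 1.61, with 0 to 3 over the omissions), against 4.86% of all genes. Their summed level was 8.94 to 31.1 scaled FPKM in Sham, 46.9 to 86.5 in SQ-3 and 38.1 to 161 in Model. Msln, the mesothelial surface protein mesothelin, measured 4.42, 0.878 and 0.148 in Sham and 7.32 to 14.7 in SQ-3, so that the groups did not overlap (adjusted p = 0.0536, and 0.0428 without Sham replicate 1). Upk3b, a second defining marker, measured 7.68, 0.568 and 0.466 in Sham and 14.9, 6.27 and 15.0 in SQ-3, so that the groups overlapped through Sham replicate 1 and SQ-3 replicate 2 (adjusted p = 0.122). Aldh1a2, the retinoic acid synthase of the epicardium, rose by 1.46 ± 0.29 (SE, adjusted p = 0.0199), and Gpm6a by 1.93 ± 0.40 (SE, adjusted p = 0.0225). Both calls were lost on most omissions. For Aldh1a2 this held without Sham 1 or Sham 2 or SQ-3 1 or SQ-3 3 (adjusted p up to 0.0691). For Gpm6a it held for all omissions but Sham 1 (up to 0.0724). Both were also lost with no filter on low values (Aldh1a2 0.0630, Gpm6a 0.0679). The part of mesothelial and epicardial cells in the matrix result was not tested. Smooth muscle and pericyte markers summed to 852 to 1026 in Sham and 872 to 913 in SQ-3, with 1 of 17 called higher, and endothelial markers had 1 of 20 called higher, with a median of -0.14.

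**Figure D3:**
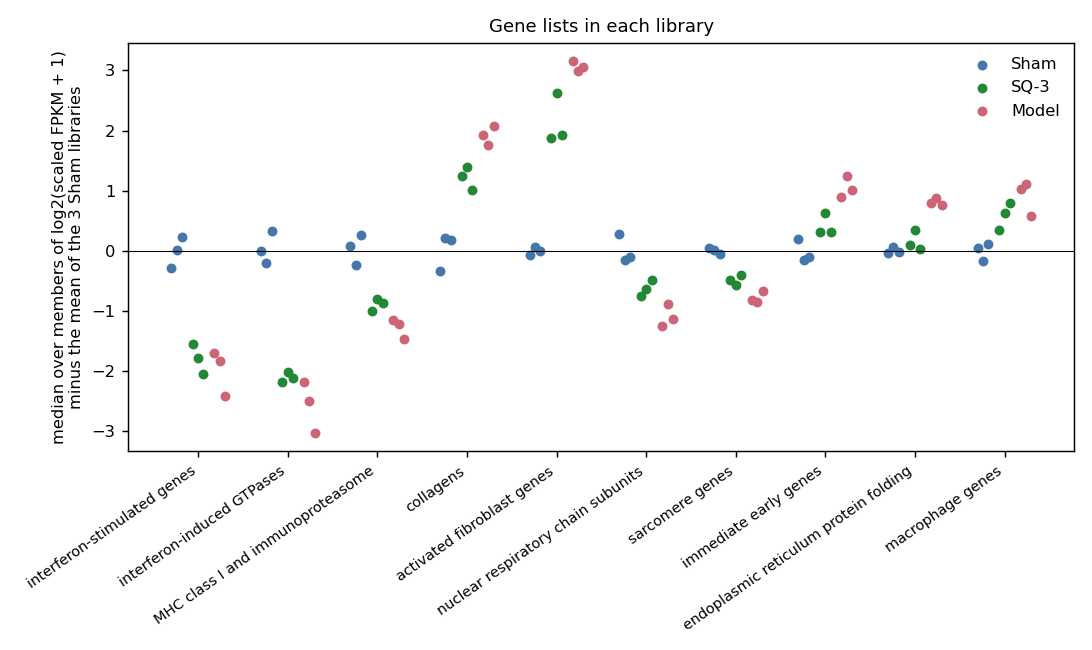
Median over the members of 10 gene lists (y axis, log2 of scaled FPKM + 1 minus the mean of the Sham libraries) in each Sham, SQ-3 and Model library. The SQ-3 libraries lay at 1.01 to 1.40 for collagens and at -2.05 to -1.56 for interferon-stimulated genes, and SQ-3 replicate 2 lay above the other SQ-3 libraries for activated fibroblast genes at 2.62.

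Of the TGF-beta and BMP pathway 9 of 39 tested members were higher (median 0.46), against 4.86% of all genes. Over the omissions 2 to 4 were called. The ligand Tgfb3 measured 5.96, 6.80 and 6.95 scaled FPKM in Sham and 28.8, 41.5 and 29.5 in SQ-3. Its SQ-3 libraries all lay far above Sham, a log2 fold change of 2.16 ± 0.32 (SE, adjusted p = 0.00485), and the gene overlaps Ttll5. Tgfb2 measured 2.31, 3.13 and 2.61 in Sham and 6.58, 11.1 and 5.65 in SQ-3, with 1.21 ± 0.28 (SE, adjusted p = 0.0306). Tgfb1, the ligand most studied in fibrosis, measured 5.16, 5.68 and 8.55 in Sham and 9.85, 8.86 and 10.4 in SQ-3; the SQ-3 values were all higher, but the gene did not pass (log2 fold change 0.54, 95% interval 0.16 to 0.93, adjusted p = 0.0848, and 0.0358 without Sham replicate 3). The receptor Tgfbr1 had 0.92 with an adjusted p of 0.0624. Ltbp2, a latent TGF-beta binding protein of microfibrils, measured 0.447 to 1.297 in Sham and 23.7 to 37.6 in SQ-3, with 4.09 ± 0.73 (SE, adjusted p = 0.0117). Nbl1, a secreted antagonist of BMPs, rose by 2.05 (adjusted p = 0.00348). Calls were lost for Tgfb2 (each of the 6 omissions, 0.0511 to 0.105) and Ltbp2 (without SQ-3 2, up to 0.0507), and with no filter on low values (Tgfb2 0.0873).

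Of 28 tested Wnt ligands, receptors and inhibitors 12 were higher (median 0.50), against 4.86% of all genes. Over the omissions 4 to 8 were called. The largest value was that of a secreted inhibitor. Sfrp2, which binds Wnt outside the cell, measured 0.506, 2.03 and 1.89 scaled FPKM in Sham and 57.5, 119 and 56.4 in SQ-3, with 4.97 ± 0.64 (SE, adjusted p = 0.00208). Sfrp1 measured 5.58, 6.20 and 6.85 in Sham and 27.0, 48.9 and 30.0 in SQ-3, with 2.29 ± 0.43 (SE, adjusted p = 0.0146), and Dkk3 rose by 3.69 (adjusted p = 0.00966). For all 3 genes SQ-3 replicate 2 was the highest library and every SQ-3 library exceeded every Sham library. Dkk3 is also on the list of atrial markers and was the 1 of 6 tested there that was called. The receptor Fzd2 rose by 1.38 and the ligand Wnt9a by 0.70 (adjusted p = 0.0101 and 0.00878). Fzd4, the most abundant receptor of the list, measured 28.5, 25.7 and 20.3 in Sham and 19.0, 23.9 and 20.4 in SQ-3 and did not pass (adjusted p = 0.394). The call lost on leaving out a library was that of Sfrp1 (without Sham 1 or Sham 2 or SQ-3 2, up to 0.0613).

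Genes of the circadian clock differed between SQ-3 and Model, and none passed between SQ-3 and Sham. No gene of 24 passed against Sham (limma; 5 were higher and 6 lower at an unadjusted p under 0.05, and limma-voom called 2 higher). Such a p against Sham was found for 3642 of all 13000 genes, in either direction. Against Model 10 passed, 6 higher and 4 lower in SQ-3, against 0.346% of all genes in both directions. Dbp, a clock output factor whose level swings widely over the day, measured 36.1, 41.5 and 43.0 scaled FPKM in Sham, 39.6, 32.3 and 35.5 in SQ-3 and 3.77, 6.10 and 2.54 in Model. SQ-3 overlapped Sham, while every Model library was far lower. The difference from Sham was -0.17 (95% interval -0.64 to 0.31) and that from Model was 2.89 ± 0.21 (SE, adjusted p = 0.000510). Its gene overlaps Sphk2. Tef, of the same factor family, measured 31.7, 33.5 and 27.2 in Sham, 25.9, 24.8 and 20.5 in SQ-3 and 6.92, 8.05 and 6.74 in Model, a difference of 1.58 ± 0.14 (SE, adjusted p = 0.000794) from Model. Tef lay slightly under Sham in each SQ-3 library (-0.37, adjusted p = 0.127). Per3, a repressor of the clock, was higher in SQ-3 than in Model by 1.47 (adjusted p = 0.000794), and Arntl, the activator BMAL1 that peaks opposite to Dbp, had a difference of -1.67 (adjusted p = 0.00123). Arntl measured 0.145 to 0.365 in Sham, 0.584 to 0.833 in SQ-3 and 3.42 to 5.75 in Model. No source used here gives the hour at which each heart was taken, and hour and group cannot be told apart.

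Chaperones of the endoplasmic reticulum, which fold secreted proteins such as collagen, differed mainly between SQ-3 and Model. Of 31 tested members 1 was higher and 1 lower against Sham (median 0.13), where 4.86% of all genes were called higher and 1.82% lower. Against Model 8 were lower in SQ-3 (median -0.47), where 0.269% of all genes were called lower. Model against Sham called 24 higher, against 20.9% of all genes. The promoters of Hspa5 and Creld2 are shown because they hold the endoplasmic reticulum stress element, read by NF-Y with ATF6 and XBP1. Capitals mark the match, on either strand, to CCAAT, any 9 bases and CCACG in the same kind of RefSeq window.
Hspa5 (chr2:34771840-34772139, plus strand): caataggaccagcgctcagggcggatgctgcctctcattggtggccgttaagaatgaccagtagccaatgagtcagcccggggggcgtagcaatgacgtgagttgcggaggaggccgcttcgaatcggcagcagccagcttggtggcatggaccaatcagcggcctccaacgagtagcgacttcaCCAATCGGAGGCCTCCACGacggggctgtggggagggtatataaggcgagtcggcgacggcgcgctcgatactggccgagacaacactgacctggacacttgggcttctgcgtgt
Creld2 (chr15:88819396-88819695, plus strand): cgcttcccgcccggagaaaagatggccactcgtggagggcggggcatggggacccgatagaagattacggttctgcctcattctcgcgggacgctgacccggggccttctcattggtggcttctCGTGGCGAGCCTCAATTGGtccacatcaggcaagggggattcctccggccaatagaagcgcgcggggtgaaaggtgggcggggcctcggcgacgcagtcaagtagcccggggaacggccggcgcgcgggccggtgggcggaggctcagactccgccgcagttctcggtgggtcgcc
The match began 65 bases before the start site in Hspa5 and 126 before it in Creld2. The element was found in 8 of 24 genes of the list with a window (33.3%) and in 0.161% of the tested genes. Hspa5, the main chaperone of the compartment, measured 131, 135 and 116 scaled FPKM in Sham, 89.5, 103 and 98.5 in SQ-3 and 237, 233 and 223 in Model. Its SQ-3 libraries lay below every Sham library and far below Model, a difference of -0.39 from Sham (95% interval -0.67 to -0.11, adjusted p = 0.0901) and of -1.25 ± 0.13 (SE, adjusted p = 0.00160) from Model. Hyou1, a chaperone partner, measured 5.27, 7.35 and 7.91 in Sham, 7.33, 5.67 and 6.76 in SQ-3 and 22.2, 19.0 and 16.9 in Model, with -1.42 ± 0.16 (SE, adjusted p = 0.00295) against Model. Creld2 and the stress factor Xbp1 differed from Model by -1.46 and -0.96 (adjusted p = 0.00964 and 0.00691), while SQ-3 and Sham overlapped in both. Against Sham the called members were Herpud1, of the degradation arm, at -0.97 ± 0.23 (SE, adjusted p = 0.0327) and Sec61a1, of the translocation channel, at 0.62 ± 0.16 (SE, adjusted p = 0.0413). Those calls were lost for Herpud1 (each of the 6 omissions, 0.0554 to 0.114) and Sec61a1 (each of the 6 omissions, 0.0648 to 0.137) and with quantile normalization (Herpud1 0.0600, Sec61a1 0.0530) and no filter on low values (Herpud1 0.0827, Sec61a1 0.0989), and against Model for Creld2 (without Model 1 or SQ-3 1 or SQ-3 3, up to 0.0642) and Xbp1 (without Model 3, up to 0.0504).

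Hsph1, a co-chaperone of the heat shock system, was called against both Sham and Model in the same direction, and no other tested gene was. It measured 8.23, 11.7 and 7.64 scaled FPKM in Sham, 6.08, 5.42 and 5.29 in SQ-3 and 12.8, 13.1 and 14.5 in Model, so SQ-3 lay below both groups. The differences were -0.61 ± 0.13 (SE, adjusted p = 0.0257) from Sham and -1.13 ± 0.13 (SE, adjusted p = 0.00464) from Model. The call against Sham was lost for Hsph1 (all omissions but Sham 3, up to 0.0837) and with no filter on low values (Hsph1 0.0667) and a fit of the 2 groups alone (Hsph1 0.0561). Inducible Hspa1b did not pass against Sham (adjusted p = 0.199) and differed from Model by -1.76 (adjusted p = 0.0153), at 0.759 to 1.19 in SQ-3 and 3.98 to 9.48 in Model. That call was lost for Hspa1b (without Model 3 or SQ-3 1 or SQ-3 2 or SQ-3 3, up to 0.0971) and with a fit of the 2 groups alone (Hspa1b 0.0582).

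Immediate early genes, transcription factors and phosphatases switched on within minutes of a stimulus, held few calls between SQ-3 and Sham. Of 33 tested members 4 were higher than in Sham (median 0.46), against 4.86% of all genes. Over the omissions 0 or 1 was called, and none with quantile normalization, no filter or a mean of at least 5 FPKM. The median was 0.30 without SQ-3 replicate 2. Model against Sham called 21 higher (median 1.08), against 20.9% of all genes. Nr4a3, an orphan nuclear receptor, measured 0.559, 0.558 and 0.629 scaled FPKM in Sham, 1.31, 1.53 and 1.22 in SQ-3 and 4.32, 6.10 and 4.96 in Model. The 3 groups were separate, with 0.57 ± 0.13 (SE, adjusted p = 0.0319) against Sham and -1.37 ± 0.13 (SE, adjusted p = 0.00132) against Model. Egr2 rose by 1.15 and the phosphatase Dusp5 by 0.59 (adjusted p = 0.0354 and 0.0293). Egr1 measured 11.1, 5.48 and 3.32 in Sham and 10.5, 13.7 and 10.9 in SQ-3, where Sham replicate 1 lay within the SQ-3 range, and did not pass (adjusted p = 0.134). Fosl2, a subunit of AP-1, differed from Model by -1.18 (adjusted p = 0.0153). Against Sham the calls were lost for Nr4a3 (each of the 6 omissions, 0.0648 to 0.107), Egr2 (all omissions but SQ-3 1, up to 0.107) and Dusp5 (all omissions but Sham 1, up to 0.0944), and with quantile normalization (Nr4a3 0.0976, Egr2 0.0699, Dusp5 0.0634), no filter on low values (Nr4a3 0.0878, Egr2 0.0989, Dusp5 0.0833) and limma-voom on recovered reads (Dusp5 0.0521), and against Model for Fosl2 (all omissions but Model 1, up to 0.0989).

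Of 27 load-responsive and fetal genes of heart muscle 2 were called higher (median 0.43), near the 4.86% of all genes, with 0 or 1 over the omissions and none with no filter. SQ-3 replicate 2 stood apart for the natriuretic peptides. Nppa, the atrial natriuretic peptide, measured 245, 201 and 342 scaled FPKM in Sham and 729.6, 3215 and 373 in SQ-3, and Nppb measured 124, 99.9 and 173 and 188, 969 and 247. All SQ-3 values exceeded Sham, and replicate 2 lay above the Model ranges, 1168 to 2907 for Nppa and 612 to 833 for Nppb. Neither passed, with log2 fold changes of 1.90 and 1.46 (adjusted p = 0.151 and 0.162). Without replicate 2 they were 1.02 (adjusted p = 0.406) for Nppa and 0.73 (adjusted p = 0.438) for Nppb. Ankrd1, a stretch-sensitive repressor, measured 1135, 1209 and 1343 in Sham and 1161, 2957 and 892 in SQ-3, with replicate 1 inside and replicate 3 below the Sham range. The fold change of 0.24 turned to -0.27 without replicate 2. Myh7, the slow myosin of the fetal heart, measured 47.6, 58.3 and 55.4 in Sham and 67.9, 91.3 and 61.0 in SQ-3 and did not pass (adjusted p = 0.210). Called members of the list were the acute-phase inhibitor Serpina3n, from 5.77, 6.73 and 8.21 to 33.1, 52.2 and 55.8 (log2 fold change 2.58, adjusted p = 0.0183), and the vasoconstrictor Edn1 at 0.89 (adjusted p = 0.0384). Gdf15, a stress hormone, measured 0.252, 0.160 and 0.212 in Sham, 2.40, 5.73 and 1.19 in SQ-3 and 28.4, 11.7 and 22.9 in Model, and did not pass against Sham (adjusted p = 0.0687) or Model (adjusted p = 0.0566). It passed against Sham with a pseudocount of 0.1 (adjusted p = 0.0209) and when SQ-3 and Sham were fitted alone (0.0392). Without SQ-3 replicate 2 its differences were 1.18 (adjusted p = 0.201) from Sham and -2.93 (adjusted p = 0.0465) from Model. The lost calls were those of Serpina3n (without Sham 1 or Sham 2 or SQ-3 2 or SQ-3 3, up to 0.0705) and Edn1 (each of the 6 omissions, 0.0568 to 0.126), and with no filter on low values (Serpina3n 0.0593, Edn1 0.104), quantile normalization (Edn1 0.0590) and limma-voom on recovered reads (Edn1 0.0584).

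Mitochondrial energy genes were lower in level in SQ-3 without passing the test. Of 74 tested nuclear subunits of the respiratory chain none was called (limma; 57 were lower at an unadjusted p under 0.05, and limma-voom called 1 lower), with a median log2 fold change of -0.65, or -0.38 with quantile normalization. Such a p was found for 3642 of all 13000 genes, in either direction. All 74 had a negative fold change, and 63 lay below every Sham library in every SQ-3 library, where 36.6% of all genes had groups that did not overlap in either direction. Model against Sham called 71 of them lower (median -1.09), against 18% of all genes. Against Model no subunit was called in SQ-3 (limma, and limma-voom called none). At an unadjusted p under 0.05 (limma) 6 were higher, where 1847 of 13000 genes had such a p in either direction. Ndufb9, of complex I, measured 343, 229 and 222 scaled FPKM in Sham, 139, 177 and 158 in SQ-3 and 91.7, 120.3 and 102 in Model. The groups followed each other without overlap, with -0.72 from Sham (95% interval -1.24 to -0.20, adjusted p = 0.0924). Atp5a1, of the ATP synthase, measured 1729, 1789 and 1571 in Sham and 1058, 859 and 1179 in SQ-3 (adjusted p = 0.104). The 13 mitochondrially encoded messages had a median of -0.33, which was 0.098 with quantile normalization and -0.61 (without Sham replicate 2) to -0.14 (without Sham replicate 1) over the omissions, and mt-Co1 overlapped between groups at 40116 to 79019 in Sham and 41339 to 54344 in SQ-3.

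The other fuel pathways that follow, apart from glycolysis, also held no call. Between SQ-3 and Sham 3642 of all 13000 genes had an unadjusted p under 0.05 (limma), in either direction. For fatty acid uptake and oxidation no gene of 45 was called (limma; 23 lower and 1 higher at an unadjusted p under 0.05; limma-voom called none), with a median of -0.62. For the TCA cycle it was no gene of 27 (16 lower at an unadjusted p under 0.05; limma-voom called none), with a median of -0.57, and for branched-chain amino acid and ketone catabolism no gene of 21 (16 lower; limma-voom called none), with a median of -0.53. Acadl, of fatty acid oxidation, measured 581, 503 and 461 scaled FPKM in Sham and 325, 306 and 356 in SQ-3, and Mdh1, of the malate shuttle, 1175, 1104 and 949 and 613, 528 and 781. In both, every SQ-3 value was below every Sham value, at an adjusted p of 0.0946 and 0.109. Oxct1, which burns ketones, was constant within Sham at 411, 413 and 411 and measured 280.2, 250.9 and 316 in SQ-3 (95% interval -1.03 to -0.07, adjusted p = 0.138). A p that misses the threshold does not show that these levels equal those of Sham. In glycolysis and hypoxia 1 of 33 genes was called, Pgam1, higher by 0.48 (adjusted p = 0.0446), where 4.86% of all genes were called higher. That call was lost for Pgam1 (each of the 6 omissions, 0.0782 to 0.131) and with FPKM as deposited (Pgam1 0.0550), quantile normalization (Pgam1 0.0533), no filter on low values (Pgam1 0.0817) and a fit of the 2 groups alone (Pgam1 0.0511).

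Contractile and calcium-handling genes held few calls, where 4.86% of all genes were called higher and 1.82% lower. Most members of both lists had a negative fold change. For the sarcomere 28 of 34 did, and 18 were lower and 2 higher at an unadjusted p under 0.05 (limma). Of 34 sarcomere genes 1 was lower (median -0.52, or -0.24 with quantile normalization, which called 1 higher and none lower), the giant spring protein Ttn, from 21.5, 27.1 and 24.1 to 16.8, 12.8 and 14.2 scaled FPKM, with -0.70 ± 0.18 (SE, adjusted p = 0.0443). Myh6, the fast myosin of the adult mouse heart, measured 3227, 4273 and 3992 in Sham and 2405, 1664 and 2981 in SQ-3. SQ-3 replicate 2 was the lowest, and the gene did not pass (adjusted p = 0.174). Tcap, the cap that anchors titin at the Z-disc, measured 2305, 1751 and 1665 in Sham, 872, 853 and 1178 in SQ-3 and 225, 305 and 161 in Model. It was the 1 sarcomere gene called higher than in Model, by 2.10 ± 0.35 (SE, adjusted p = 0.0346), and its difference from Sham, -0.98, did not pass (adjusted p = 0.110). Of 51 tested genes of calcium cycling and excitation 1 was called higher and none lower, with 0 or 1 each over the omissions. Their median was -0.47, or -0.29 without SQ-3 replicate 2. At an unadjusted p under 0.05 (limma) 19 were lower and 1 higher, and 44 of 51 had a negative fold change. Over all genes 3642 of 13000 had such a p in either direction. The calcium pump Atp2a2 measured 2017, 2479 and 2162 in Sham and 1381, 807 and 1532 in SQ-3, and the potassium channel Kcnj5 18.2, 19.6 and 16.1 and 10.9, 9.04 and 12.5. Both were lower in every SQ-3 library without passing (adjusted p = 0.142 and 0.103). Calls were lost for Ttn (each of the 6 omissions, 0.0649 to 0.141), with quantile normalization (Ttn 0.0817), no filter on low values (Ttn 0.104) and limma-voom on recovered reads (Ttn 0.0701), and against Model for Tcap (each of the 6 omissions, 0.0560 to 0.166) and with no filter on low values (Tcap 0.126). Of the 12 cardiomyocyte markers none was called (limma; 7 lower and 1 higher at an unadjusted p under 0.05; limma-voom called none), with a median of -0.60 (-0.19 with quantile normalization) and sums that did not overlap between Sham and SQ-3. The part of fewer muscle cells among all cells was not tested.

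**Figure D4:**
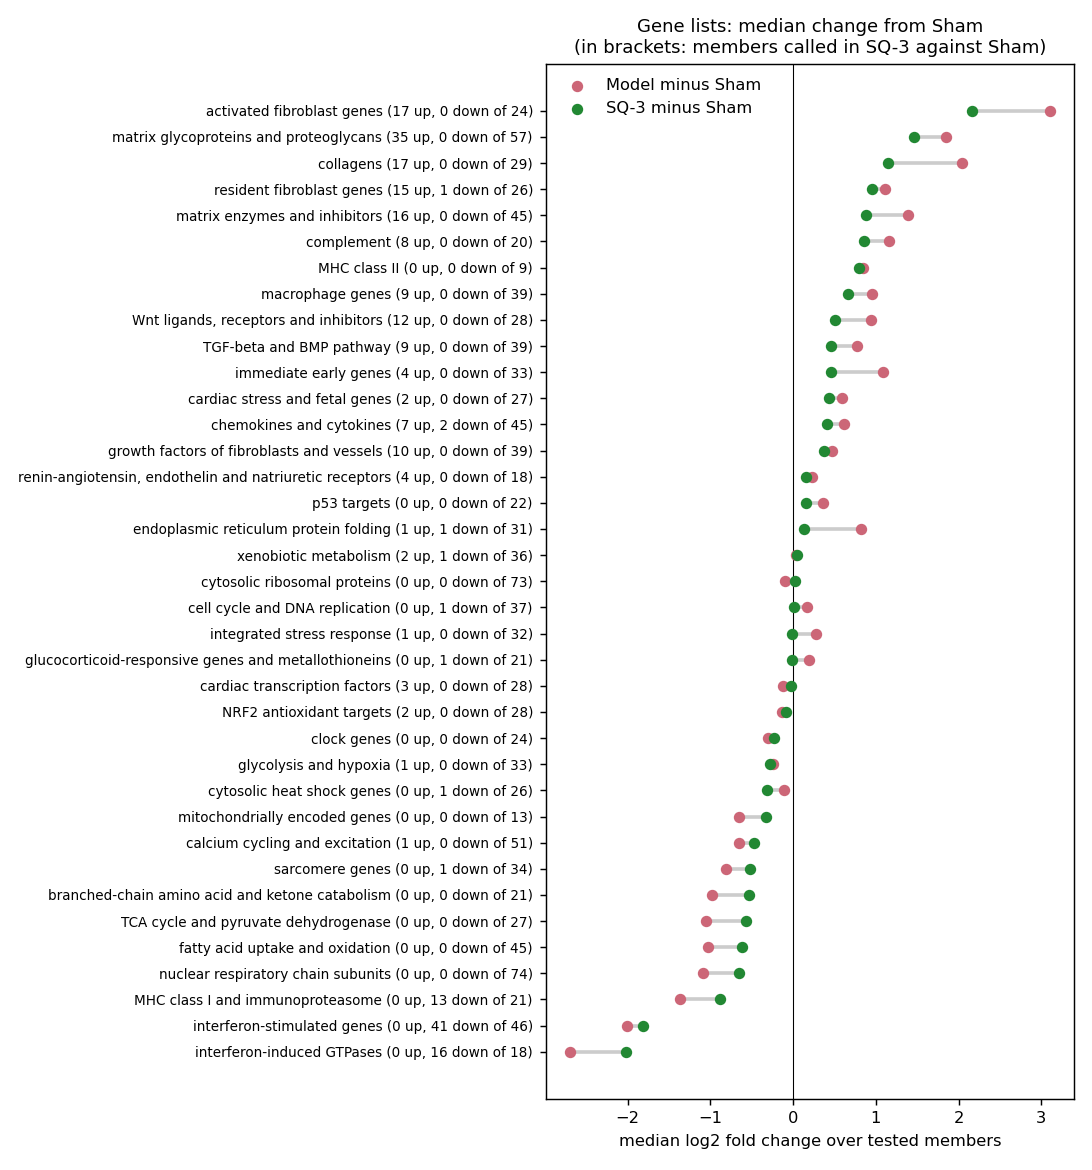
Median log2 fold change over the tested members of each pathway list for SQ-3 minus Sham (green) and Model minus Sham (pink), with the members called in SQ-3 against Sham in brackets. SQ-3 lay between 0 and Model for collagens (1.14 and 2.04) and respiratory chain subunits (-0.65 and -1.09), close to Model for interferon-stimulated genes (-1.82 and -2.01) and near 0 for endoplasmic reticulum folding (0.13 and 0.82).

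Macrophage and complement genes were higher in part. Of 39 macrophage genes 9 were higher (median 0.66), against 4.86% of all genes. Over the omissions 2 to 5 were called. Gpnmb and Trem2, which mark lipid-handling macrophages of injured tissue, showed separate groups. Gpnmb measured 0.155, 0.114 and 0.253 scaled FPKM in Sham and 2.56, 4.99 and 5.86 in SQ-3, with 2.17 ± 0.31 (SE, adjusted p = 0.00367), and Trem2 0.472, 0.315 and 0.650 and 2.48, 2.39 and 4.52, with 1.45 ± 0.24 (SE, adjusted p = 0.00879). Csf1r, the receptor for the growth factor that keeps macrophages alive, rose by 0.88 ± 0.16 (SE, adjusted p = 0.0117) and overlaps Hmgxb3. Spp1, the cytokine osteopontin, measured 0.614, 0.541 and 0.904 in Sham and 8.18, 35.2 and 12.6 in SQ-3, with 3.30 ± 0.63 (SE, adjusted p = 0.0164). Cd68, a general macrophage marker, measured 11.6, 8.51 and 16.1 in Sham and 16.8, 23.9 and 27.7 in SQ-3 and did not pass (adjusted p = 0.0698). Calls were lost for Csf1r (without Sham 2 or SQ-3 3, up to 0.0537) and Spp1 (without Sham 1 or Sham 2 or SQ-3 2, up to 0.0640), and with no filter on low values (Spp1 0.0553) and limma-voom on recovered reads (Spp1 0.0951). SQ-3 replicate 2 held the highest Spp1 value but not the highest Gpnmb or Trem2 value.

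Of 20 complement genes 8 were higher (median 0.85), against 4.86% of all genes. Over the omissions 2 to 4 were called. C7, of the membrane attack complex, measured 18.9, 15.8 and 18.1 scaled FPKM in Sham and 36.9, 47.4 and 53.7 in SQ-3, with 1.32 ± 0.18 (SE, adjusted p = 0.00334). The central component C3 measured 57.4, 43.4 and 45.1 in Sham and 199.9, 109 and 260.1 in SQ-3, with replicate 2 the lowest, and rose by 1.87 ± 0.41 (SE, adjusted p = 0.0261). That call was lost for C3 (all omissions but SQ-3 2, up to 0.0892) and with no filter on low values (C3 0.0755). C1qa, made by resident macrophages, measured 119.8, 75.0 and 109.8 in Sham and 94.7, 138 and 142 in SQ-3, and the groups overlapped (adjusted p = 0.462). No MHC class II gene of 9 was called (limma and limma-voom, and none at an unadjusted p under 0.05), and Cd74, the chain that chaperones class II, measured 189, 79.8 and 50.8 in Sham and 169, 179 and 297 in SQ-3. Igkc, the kappa light chain of antibody-secreting cells, measured 7.76, 0.977 and 6.78 in Sham and 102, 10.4 and 273 in SQ-3, with SQ-3 replicates 1 and 3 far above replicate 2. It did not pass, at a log2 fold change of 3.74 (adjusted p = 0.0596), and was called without SQ-3 replicate 2 at 5.03 (adjusted p = 0.0186) and with a mean of at least 5 FPKM (adjusted p = 0.0494).

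Of 39 tested growth factors and vessel regulators 10 were higher (median 0.37, with 2 to 5 over the omissions), against 4.86% of all genes. Of the renin-angiotensin and endothelin list 4 of 18 were higher (median 0.16, with 1 or 2 over the omissions). Igf1, a growth factor that fibroblasts and macrophages secrete, measured 1.98, 2.31 and 3.00 scaled FPKM in Sham and 7.87, 9.18 and 8.16 in SQ-3, with 1.46 ± 0.26 (SE, adjusted p = 0.0128). Vegfd, a ligand of lymphatic vessels, measured 0.970, 0.432 and 1.04 in Sham and 6.56, 7.23 and 5.56 in SQ-3, with 2.05 ± 0.36 (SE, adjusted p = 0.0109). In both genes every SQ-3 library lay above every Sham library. Ace, which makes angiotensin II, measured 33.4, 37.5 and 43.0 in Sham and 66.1, 76.3 and 63.5 in SQ-3, with 0.84 ± 0.15 (SE, adjusted p = 0.0129), and the aminopeptidase Anpep rose by 1.51 (adjusted p = 0.00552). Vwf, the clotting factor of endothelium, measured 6.19, 6.75 and 6.37 in Sham and 14.6, 11.8 and 19.4 in SQ-3, with 1.11 ± 0.24 (SE, adjusted p = 0.0262). Calls were lost for Igf1 (without Sham 1 or Sham 2 or SQ-3 2, up to 0.0545), Vegfd (without Sham 2, up to 0.0537), Ace (without Sham 1 or Sham 2 or SQ-3 2, up to 0.0545) and Vwf (all omissions but SQ-3 2, up to 0.0865), and with no filter on low values (Vwf 0.0737). Among cardiac transcription factors 3 of 28 were higher, against 4.86% of all genes. Over the omissions 0 or 1 was called, with 1 by quantile normalization or limma-voom and none with no filter. The 3 were Meox1, which is induced in activated fibroblasts, at 1.71 ± 0.42 (SE, adjusted p = 0.0368), the tendon factor Scx at 1.31 ± 0.33 (SE, adjusted p = 0.0393) and the fibroblast factor Tcf21 at 1.12 ± 0.29 (SE, adjusted p = 0.0453). Those calls were lost for Meox1 (all omissions but SQ-3 1, up to 0.128), Scx (each of the 6 omissions, 0.0664 to 0.130) and Tcf21 (all omissions but Sham 3, up to 0.147), and with no filter on low values (Meox1 0.0999, Scx 0.106, Tcf21 0.117), quantile normalization (Scx 0.0542, Tcf21 0.0590) and limma-voom on recovered reads (Scx 0.0593, Tcf21 0.0521).

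The remaining lists held few calls, where 4.86% of all genes were called higher and 1.82% lower. An unadjusted p under 0.05 (limma) was found for 3642 of all 13000 genes, in either direction. Xdh, the enzyme that makes uric acid, measured 37.0, 37.7 and 40.2 scaled FPKM in Sham and 18.0, 13.2 and 16.8 in SQ-3, with -1.22 ± 0.16 (SE, adjusted p = 0.00202). Its groups were tight and separate. Pparg, the fat-cell regulator, had -0.72 ± 0.13 (SE, adjusted p = 0.0129). It was the 1 of 9 tested adipocyte markers called lower, and 1 was called higher (median 0.32, 6 positive and 3 negative). Zbtb16, a factor that glucocorticoids induce, had -1.76 ± 0.46 (SE, adjusted p = 0.0481). It was the 1 call among 21 tested glucocorticoid-responsive genes and metallothioneins (median -0.016, 9 positive and 12 negative). Zbtb16 measured 21.6, 16.6 and 13.3 in Sham and 7.15, 4.65 and 2.21 in SQ-3, while Model libraries measured 7.47, 16.8 and 18.1, so that replicates 2 and 3 lay in the Sham range. Cyp1b1, a target of the aryl hydrocarbon receptor that fibroblasts also express, rose by 1.67 ± 0.34 (SE, adjusted p = 0.0202), and the ferritin light chain Ftl1 by 0.89 ± 0.19 (SE, adjusted p = 0.0253). Calls were lost for Pparg (without Sham 1 or Sham 2 or SQ-3 2, up to 0.0571), Zbtb16 (each of the 6 omissions, 0.0606 to 0.149), Cyp1b1 (all omissions but SQ-3 1, up to 0.0744) and Ftl1 (all omissions but Sham 3, up to 0.0906), and with quantile normalization (Zbtb16 0.0598) and no filter on low values (Zbtb16 0.125, Cyp1b1 0.0637, Ftl1 0.0645). In the p53 list no gene of 22 was called (limma; 7 higher and 3 lower at an unadjusted p under 0.05; limma-voom called none), and Cdkn1a, the cell cycle inhibitor p21, measured 13.3, 10.5 and 10.1 in Sham, 11.1, 16.2 and 16.7 in SQ-3 and 26.8, 31.8 and 45.8 in Model. No ribosomal protein gene of 73 was called (limma; 2 higher and 1 lower at an unadjusted p under 0.05; limma-voom called none). Rps2, chosen after its values were seen, measured 170.2, 141 and 142 in Sham, 3.84, 0.561 and 0.258 in SQ-3 and 113, 138 and 0.256 in Model. All SQ-3 libraries and Model replicate 3 lay far below the other libraries. Its log2 fold change of -6.16 did not pass (adjusted p = 0.0865; 0.00115 in a fit of the 2 groups alone), and reads of ribosomal protein genes are hard to separate from those of their many pseudogenes. Of 37 cell cycle genes 1 was called, Cenpf, lower at an adjusted p of 0.0354, near the 1.82% of all genes called lower. That call was lost for Cenpf (all omissions but Sham 3, up to 0.111) and with no filter on low values (Cenpf 0.0878) and a fit of the 2 groups alone (Cenpf 0.0578).

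**Figure D5:**
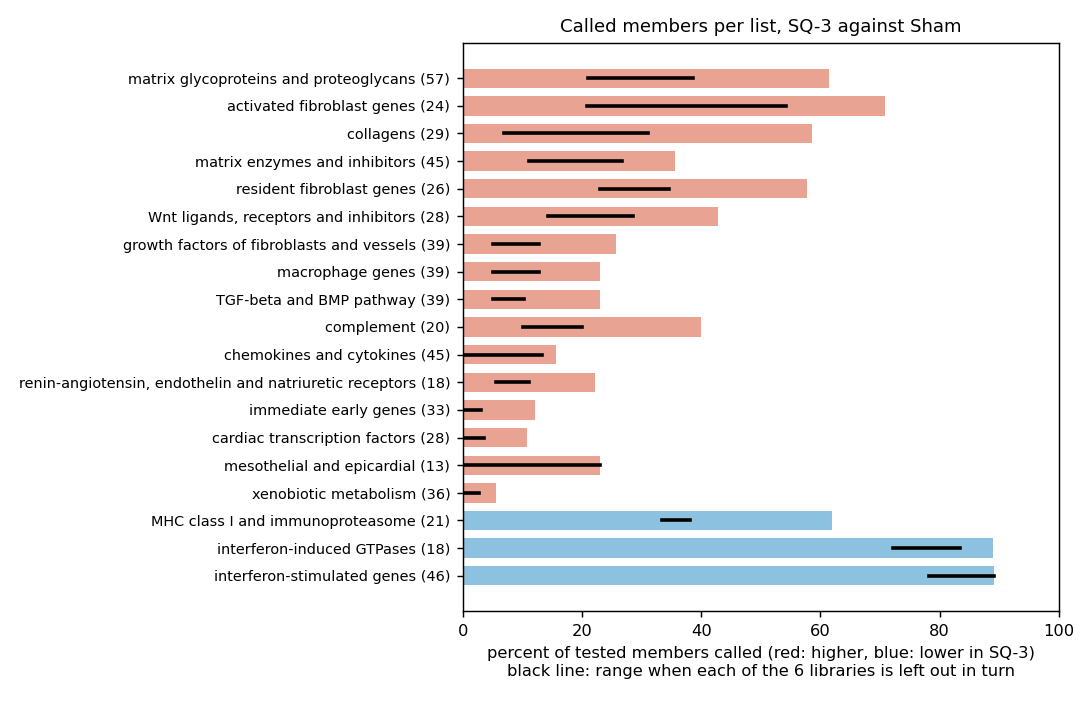
Percent of the tested members of each list called in SQ-3 against Sham (bars, red for higher and blue for lower, number tested in brackets), with a black line for the range over the 6 omissions of 1 library, for lists with at least 3 calls. Over the omissions 36 to 41 of 46 interferon-stimulated genes and 2 to 9 of 29 collagens were called.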

How the data were processed

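Polyadenylated RNA of mouse hearts was sequenced, and the authors deposited FPKM values per gene for 54532 genes, not counts. Per the submitters' processing notes the tools were fastp, HISAT2 2.0.5 and featureCounts 1.5.0-p3 and the build mm10. The strand setting and annotation release were not given in the sources used here. Overlapping genes are therefore uncertain. FPKM multiplied by gene length gave whole multiples of 1 read for 100.0% of values (tolerance 0.02 read), which recovered the depth. Libraries were brought to one scale with median-of-ratios factors from 10422 genes (scaled FPKM). Genes with at least 1 FPKM in 3 of the 12 mouse libraries were kept, and limma 3.58.1 (R 4.3.3) was fitted to log2(scaled FPKM + 1) of all 12 libraries, with p-values adjusted over 13000 genes at a threshold of 0.05. The script was tested on simulated data.

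The members, gene lists and tests were chosen with earlier results of these data known. Named genes were eligible as the 12 largest changes per direction, as called members of a list by smallest p, as its most abundant uncalled members, as members called in Model only, as genes beyond both groups, as called noncoding RNAs, or from a short fixed set. Some eligible genes are left out. The alternatives tried were other scalings, pseudocounts, filters, samples and tests, a replicate block, and the omission of each library. Results for a few genes are not reported here.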

Additional observations from a re-analysis of the deposited data

How the results depend on the processing

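Called genes between SQ-3 and Sham, 868 as reported, numbered 262 with no filter on low values (129 higher and 133 lower, with 29037 genes tested) and 227 to 444 when 1 library was left out. They numbered 600 to 1292 under the other alternatives, where 846 were called with FPKM as deposited, 848 by limma-voom on recovered reads and 1095 with a pseudocount of 0.1. Between Model and Sham 3291 genes were called with a mean of at least 5 FPKM (6813 tested) and 3288 to 4498 on leaving out 1 library. Between SQ-3 and Model the omissions gave 12 to 26 calls. With the replicate number as a block, 654 genes were called between SQ-3 and Sham, 4576 between Model and Sham and 29 between SQ-3 and Model, and 9 named genes called against Sham and 1 against Model were not called. Same-numbered SQ-3 and Sham libraries did not deviate together (correlations of -0.20, -0.08 and 0.05), so the numbers were not taken as pairs. For the genes named above, 1601 of the values recomputed against Sham kept their direction and side of the threshold, 216 lost the call, 26 gained one and 6 changed sign. Those 6 were Acta2 at 0.042 with quantile normalization and 0.046 without SQ-3 replicate 1, Hyou1 at 0.016, 0.062 and 0.052 without Sham replicate 2, Sham replicate 3 and SQ-3 replicate 2, and Ankrd1 at -0.27 without SQ-3 replicate 2. Over the omissions Acta2 ranged from -0.29 to 0.046, Hyou1 from -0.19 to 0.062 and Ankrd1 from -0.27 to 0.60. Calls gained that are not given above were those of Tgfbr1 and Kcnj5 in a fit of the 2 groups alone, Arntl with a pseudocount of 0.1 and by limma-voom, Fosl2 against Sham in those 3 settings, Tcap against Sham in the fit of 2 groups, Msln with a pseudocount of 0.1, a mean of at least 5 FPKM, the block or the fit of 2 groups, Rps2 with the block, and Cdkn1a against Model by limma-voom, with a mean of at least 5 FPKM and with quantile normalization. The Wnt median, 0.50, was 0.21 with no filter and 1.38 with a mean of at least 5 FPKM, and the collagen median, 1.14, was 0.63 and 2.08. The cause was not tested, except that fewer samples, or more genes tested, enter the fits concerned. With 3 libraries per group, the number of libraries as well as the depth of 13085370 to 16698987 reads limits the precision.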
